A study of Mus musculus with 6 samples.

Results

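The distal end of mouse chromosome 11 between Rpl38 and Usp36 was examined gene by gene in 6 breast tumours of mice. The 58 members are neighbouring protein-coding genes of this stretch, listed in GRCm38 order. They were chosen by their measured values, because the difference between knockout and control tumours ran the same way over most of them. That difference is therefore given below as a description, and no test of it is offered. The array named 19057 genes in all. Of the members, 55 had a named probe on the Illumina bead array and 51 had at least 1 probe above background on 3 or more of the 6 arrays. Those 51 are called measured, against 9354 measured genes in all. The gene table places 106 coding genes between Rpl38 and Usp36, so 48 coding genes of the stretch are not members, and 14 non-member genes of any kind were measured there.

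The series compared 3 control tumours of genotype Cyp27b1 flox/flox;Cre- with 3 knockout tumours of genotype Cyp27b1 flox/flox;Cre+, all on an FVB background. Cyp27b1 encodes the hydroxylase that turns the circulating precursor of vitamin D into its active hormone, and both groups carried the floxed allele on both chromosomes. Because only the knockout tumours carried Cre, an effect of Cre and an effect of losing Cyp27b1 cannot be told apart. The promoter that drives Cre, the tumour model and the age of the mice are not stated in the labels. The labels do not link tumours to individual mice, and p-values thus reflect the spread among these 6 samples, which may be technical.

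Neighbouring genes on a chromosome usually have their own promoters and unrelated functions, and the genes from Rpl38 to Usp36 range from ribosomal proteins to integrins and enzymes. Most of them are housekeeping genes, which nearly every cell type transcribes. A smaller number, such as Itgb4, Evpl and Llgl2, encode junction and polarity proteins of epithelium, the tissue from which breast tumours arise.

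Values are normalized log2 intensities, so 1 unit is a doubling of signal on this scale. Each gene is represented by its kept probe with the highest mean, and a value below about 5.0 is near background, since the dimmest detected probes lay between 4.90 and 5.0. Summed signal ranged from 1.07e+07 to 1.48e+07 per array, and 33.4% to 36.1% of probes were detected. The epithelial genes Krt8, Krt18 and Cdh1 were detected in every tumour, with control means of 11.20 ± 0.78, 10.02 ± 0.67 and 7.37 ± 0.50 (SD, n = 3). The only Cyp27b1 probe was detected on 0 arrays. It averaged 4.34 ± 0.05 in control and 4.36 ± 0.07 in knockout tumours (SD, n = 3 each; exact two-sided permutation test, p = 0.80, where 0.10 is the smallest possible), and so checks nothing about the labels.

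The segment was high in 2 of the 3 knockout tumours. Relative to the mean of the control tumours, the median measured member stood at 1.5 in knockout 1, 1.20 in knockout 2 and 0.25 in knockout 3. The control tumours themselves had medians of -0.09, 0.18 and -0.14. Knockout 3 thus lay close to the highest control, while knockouts 1 and 2 lay more than 1 log2 unit above all 3 controls. With the authors' deposited normalized values the medians of knockouts 1, 2 and 3 were 0.90, 0.70 and 0.13. In whole tumours, a larger share of cells that transcribe a gene and more RNA per cell cannot be told apart.

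Averaged over the 3 knockout tumours, 47 of 51 measured members had a higher level than in the controls, with a median difference of 0.95 (0.55 with the authors' values). Off the segment, 5011 of 9289 measured genes had a higher level. With the authors' values the difference shrank by more than 1.5 times for 31 of 51 members. On the main scale it ranged from -2.85 for Mxra7 to 3.08 for St6galnac2, and over all measured genes off the segment the median was 0.05. In the limma fit over all probes, 9 members were called higher at an adjusted p below 0.05: Slc9a3r1, Hid1, Nup85, Mif4gd, Llgl2, Itgb4, Trim47, Mrpl38 and St6galnac2. Cdr2l and Mxra7 were called lower. Of all measured genes, 4.47% were called higher and 5.63% lower. The count of 11 called members changed when single tumours were left out. It was 26 without knockout 3, 5 without knockout 1, 4 without knockout 2, 3 without control 3 and 2 without control 1.

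Every knockout tumour lay above every control for 19 members and below every control for 2, where 17.2% and 14.9% of all measured genes did so. Counted tumour by tumour, knockout 1 exceeded all 3 controls for 40 of 51 members (78.4%), knockout 2 for 38 (74.5%) and knockout 3 for 25 (49%). The same held for 36.9%, 34.7% and 33.7% of all measured genes. The members were selected on this contrast, so nothing is read from these counts. The same holds for the counts of members above 0 and of called members in each group below.

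**Figure D1:**
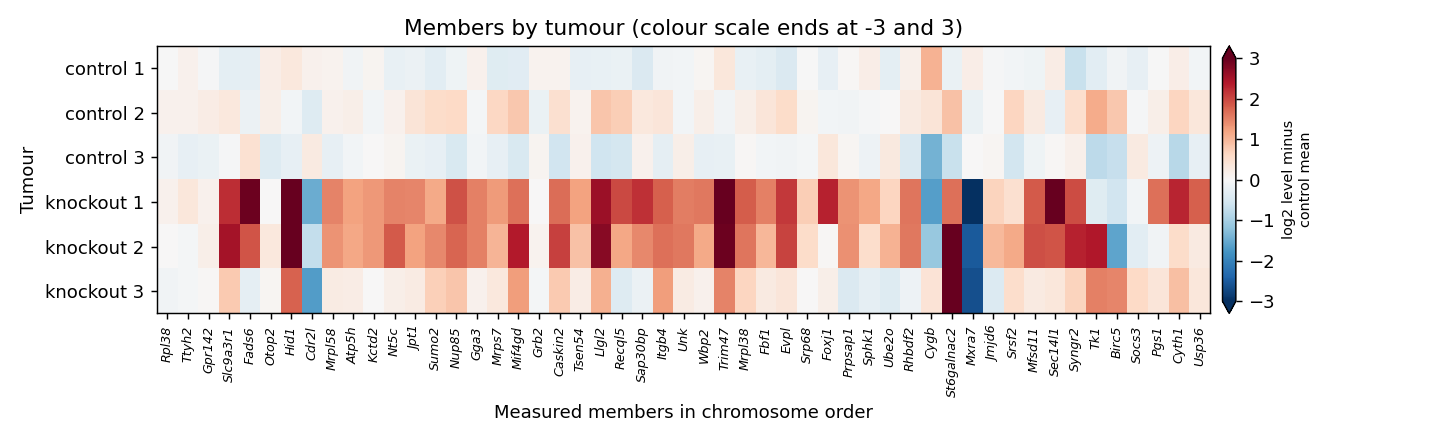
Level of the 51 measured members (columns, in chromosome order) in each of the 6 tumours (rows), as the log2 level minus the mean of the 3 control tumours; red is higher and blue is lower. Knockout 1 and knockout 2 are red over most columns, knockout 3 is pale over most of them, and Mxra7 and Cdr2l are blue in all 3 knockout tumours.

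The promoters of 4 members are shown because they include a pair of neighbours with overlapping promoter windows, a member called higher and a member called lower. Each is the 150 bases just before the start site, from RefSeq on GRCm38.p6, written 5′ to 3′ along the gene's strand, with every CG dinucleotide in capitals. Atp5h (chr11:115419920-115420069, minus strand) and Kctd2 (chr11:115419976-115420125, plus strand) start 207 bases apart on opposite strands. Slc9a3r1 (chr11:115163191-115163340, plus strand) was called higher, and Mxra7 (chr11:116828047-116828196, minus strand) had the largest difference below 0.
Atp5h: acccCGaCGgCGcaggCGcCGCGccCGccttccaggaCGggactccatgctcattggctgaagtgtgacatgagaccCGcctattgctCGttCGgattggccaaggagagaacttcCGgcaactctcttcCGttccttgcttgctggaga
Kctd2: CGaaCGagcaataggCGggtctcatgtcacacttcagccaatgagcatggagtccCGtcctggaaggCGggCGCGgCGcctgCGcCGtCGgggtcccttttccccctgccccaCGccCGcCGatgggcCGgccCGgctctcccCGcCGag
Slc9a3r1: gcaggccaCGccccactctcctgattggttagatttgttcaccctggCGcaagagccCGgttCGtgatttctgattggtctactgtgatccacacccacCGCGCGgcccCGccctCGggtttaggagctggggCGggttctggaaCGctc
Mxra7: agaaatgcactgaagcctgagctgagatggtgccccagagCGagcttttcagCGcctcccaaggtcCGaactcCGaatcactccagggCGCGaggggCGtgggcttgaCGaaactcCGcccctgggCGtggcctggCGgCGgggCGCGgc

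The motif counted was CG, which reads the same on both strands. The window of Mxra7 held 14 of them, that of Slc9a3r1 11, that of Atp5h 13 and that of Kctd2 18. Over the 43 members in the promoter table the median was 14, taking the window with most CG where a gene has several starts, and 95.3% of members had at least 5. Over all 27025 genes of the table the median was 4, and 48.2% had at least 5. Housekeeping genes are known for CG-rich promoters, and 29 of the 43 members come from the list of ubiquitous genes, where the median was 15.

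For 3 pairs of members on opposite strands, the promoter windows of the table, from 250 bases before to 50 after the start, overlapped. Besides Atp5h and Kctd2, these were Gga3 with Mrps7, 224 bases apart, and Recql5 with Sap30bp, 167 bases apart. Atp5h, a subunit of mitochondrial ATP synthase, stood 1.22, 1.17 and 0.22 above the control mean in knockouts 1, 2 and 3. Kctd2, a cullin adaptor, stood at 1.30, 1.30 and 0.02. Both partners were thus high in knockouts 1 and 2 and near the controls in knockout 3. Recql5, a DNA helicase, stood at 1.98, 1.16 and -0.40, and Sap30bp, a transcriptional co-regulator, at 2.18, 1.43 and -0.18.

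Among junction and polarity genes, all 5 measured members had differences above 0, and 3 were called higher. Itgb4, the integrin subunit of hemidesmosomes, measured 10.09, 10.57 and 9.93 in controls 1 to 3 and 11.98, 11.84 and 11.46 in knockouts 1 to 3. All 3 knockout tumours were well above the controls, at a difference of 1.56 (SE 0.25). Llgl2, a basolateral polarity protein, measured 8.52, 9.58 and 8.16 in the controls and 11.31, 11.49 and 9.81 in the knockouts. The groups did not overlap, but knockout 3 lay only slightly above control 2. Slc9a3r1, an apical scaffold that binds ezrin, measured 9.55, 10.17 and 9.82 against 12.05, 12.35 and 10.63. Again knockouts 1 and 2 were far above the controls and knockout 3 a little above them. Evpl, the desmosomal plakin envoplakin, measured 4.93, 5.92 and 5.26 against 7.50, 7.39 and 5.74, so knockout 3 fell within the control range. Fbf1, a centriole and keratin-binding protein in human cells, differed by 0.93.

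Membrane traffic genes had a median difference of 1.65 over 5 measured members, close to the 1.56 of the junction genes, and Hid1 was called higher. Hid1, a Golgi protein of vesicle sorting, measured 6.33, 5.93 and 5.77 in the controls and 9.43, 9.34 and 7.77 in the knockouts. All 3 knockouts were above all controls, by 2.84 on average (SE 0.44), and a second probe gave 1.51. With the authors' values the difference was 1.47, and with no background correction 1.86. Sec14l1, a lipid-binding Sec14-like protein, measured 7.96, 7.49 and 7.78 against 10.90, 9.63 and 8.09. Knockout 1 was highest and knockout 3 barely exceeded control 1. Syngr2, a vesicle membrane protein, measured 7.85, 9.0 and 8.67 against 10.46, 10.82 and 9.17, again with knockout 3 next to the highest control. Cyth1, which activates ARF GTPases, measured 5.63, 6.07 and 4.60 against 7.72, 5.98 and 6.33, so here knockout 1 alone stood clear of the controls. Gga3, a clathrin adaptor, differed by 1.05, while its other kept probe gave -0.27.

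Ubiquitin and SUMO genes gave 5 measured members, all with differences above 0 and 1 called higher. Trim47, a RING-type ubiquitin ligase, measured 5.86, 5.41 and 5.31 in the controls and 9.07, 8.46 and 7.01 in the knockouts. The groups were separate, and the difference was 2.65 (SE 0.49), or 1.15 with the authors' values and 1.53 with no background correction. Sumo2, which is conjugated to other proteins, measured 10.26, 11.13 and 10.33 against 11.70, 12.02 and 11.29, where knockout 3 lay just above control 2. Kctd2 measured 7.86, 7.70 and 7.80 against 9.09, 9.08 and 7.81. Its 3 controls were close together and knockout 3 lay among them. Usp36, a nucleolar deubiquitinase at the distal end of the list, measured 6.41, 6.83 and 6.25 against 8.29, 6.76 and 6.84, so only knockout 1 was high. Ube2o, a ubiquitin-conjugating enzyme, differed by 0.44.

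The 6 measured genes of ribosomes and mitochondria had a median difference of 0.87, and 1 was called higher. Mrpl38, a protein of the mitochondrial large ribosomal subunit, measured 10.54, 10.96 and 10.82 in the controls and 12.58, 12.39 and 11.42 in the knockouts. Every knockout exceeded every control, with knockout 3 the closest to them. Mrpl58, a peptidyl-tRNA hydrolase of the same subunit, measured 7.59, 7.62 and 7.23 against 8.96, 8.83 and 7.73. Atp5h measured 9.57, 9.85 and 9.60 against 10.89, 10.84 and 9.89. In both genes knockout 3 sat just above the highest control. Mrps7, of the small subunit, measured 9.73, 10.72 and 9.84 against 11.37, 11.11 and 10.42, and knockout 3 overlapped the controls. Pgs1, which makes a precursor of cardiolipin, differed by 0.64. Rpl38, a protein of the cytosolic ribosome and the proximal end of the list, differed by 0.01.

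All 7 genes of RNA handling and translation were measured and had differences between 0.41 and 1.76, with 1 called higher. Mif4gd, which takes part in histone mRNA translation, measured 6.95, 8.11 and 6.84 in the controls and 8.95, 9.69 and 8.55 in the knockouts. The groups did not overlap, and its 2 other probes gave 1.61 and 1.71. Sap30bp measured 5.86, 6.61 and 6.43 against 8.48, 7.73 and 6.12. Unk, an RNA-binding zinc finger protein, measured 6.04, 6.05 and 6.31 against 7.68, 7.71 and 6.37. For both, knockouts 1 and 2 were high and knockout 3 was at or just above the control level. Tsen54, of the tRNA splicing endonuclease, measured 6.54, 6.91 and 6.93 against 8.01, 7.67 and 7.02, with knockout 3 just above the controls. The splicing factor Srsf2 differed by 0.72, the signal recognition particle subunit Srp68 by 0.44 and the lysyl hydroxylase Jmjd6 by 0.41.

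Nuclear and cell cycle genes did not move as 1 group. Nup85, a nuclear pore scaffold protein, measured 7.25, 7.97 and 6.92 in the controls and 9.28, 9.13 and 8.21 in the knockouts, and was the only one of 5 measured members called higher. Jpt1 measured 12.35, 12.92 and 12.33 against 14, 13.74 and 12.78, and Recql5 measured 5.58, 6.52 and 5.26 against 7.77, 6.94 and 5.39. In both, knockout 3 lay within the control range. Thymidine kinase Tk1, which is high in dividing cells, measured 7.19, 8.62 and 6.73 against 7.14, 9.92 and 9.02. Birc5, the mitotic protein survivin, measured 8.0, 8.91 and 7.42 against 7.53, 6.53 and 9.58. In Tk1 knockout 1 was at the control level, and in Birc5 knockout 2 was the lowest and knockout 3 the highest of the 6 tumours. Over 15 other proliferation genes, the median stood at -0.96, -0.64 and 0.67 in knockouts 1, 2 and 3. A link between proliferation and the level of the segment was not tested.

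Enzymes of small molecules and glycans gave 6 measured members, of which 1 was called higher. St6galnac2, a sialyltransferase, measured 4.95, 6.03 and 4.49 in the controls and 6.80, 9.67 and 8.23 in the knockouts. Its highest tumours were knockouts 2 and 3, unlike most members, and its other kept probe gave -0.24 against 3.08 (SE 0.70) for this one. Only 1 of the 3 controls was detected, so the size of this difference is not exact. The difference was 1.31 with the authors' values and 1.73 with no background correction, and under both settings Llgl2 was higher. Nt5c, a nucleotidase, measured 8.17, 8.53 and 8.47 against 9.88, 10.23 and 8.57, with knockout 3 next to control 2. Fads6, of the fatty acid desaturase family, measured 5.09, 5.18 and 5.81 against 8.29, 7.24 and 5.09, so knockouts 1 and 2 were high and knockout 3 was near background. Cygb, the globin cytoglobin, measured 7.12, 6.47 and 4.67 against 4.43, 4.96 and 6.5, a difference of -0.79 with overlapping groups. Prpsap1, which binds the synthetase of phosphoribosyl pyrophosphate, differed by 0.76, and the sphingosine kinase Sphk1 by 0.47.

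No signalling or transcription member was called in either direction. Rhbdf2, a rhomboid-like protein that escorts a membrane protease, measured 5.18, 5.30 and 4.59 in the controls and 6.62, 6.61 and 4.86 in the knockouts. Wbp2, a co-activator with a WW-binding motif, measured 12.45, 12.56 and 12.14 against 13.96, 13.53 and 12.52. Both were high in knockouts 1 and 2 and within the control range in knockout 3. Foxj1, the transcription factor of ciliated cells, measured 4.79, 4.95 and 5.39 against 7.35, 5.09 and 5.23, so knockout 1 alone had a clear signal. Gpr142, a G protein-coupled receptor, measured 4.74, 4.99 and 4.57 against 4.90, 4.95 and 4.80 and stayed near background in all 6 tumours. The adaptor Grb2 was also near background on its only probe, between 4.71 and 5.01, and differed by 0.01. Socs3, an inhibitor of cytokine signalling, was well measured and differed by 0.07.

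The remaining members held both calls below 0. Mxra7, named for its link to matrix remodelling, measured 7.96, 7.55 and 7.77 in the controls and 4.36, 5.23 and 5.13 in the knockouts. All 3 knockouts were far below all controls, at a difference of -2.85 (SE 0.27), and a second probe gave -1.76. Because knockout 1 lay below the dimmest detected probes and only 2 of the 3 knockouts were detected, the size of this difference is not exact. It was -0.97 with the authors' values and -1.41 with no background correction. Cdr2l, a cytoplasmic coiled-coil protein, measured 8.84, 8.32 and 8.98 against 7.22, 7.99 and 7.03, a difference of -1.30 (SE 0.31), with knockouts 1 and 3 lowest. Caskin2, an ankyrin-repeat scaffold, measured 7.29, 7.67 and 6.62 against 8.88, 9.24 and 7.97, and Mfsd11, a transporter-like membrane protein, measured 7.24, 7.64 and 7.26 against 9.23, 9.32 and 7.65. Both were higher in every knockout than in every control, though knockout 3 barely so for Mfsd11. The membrane proteins Ttyh2 and Otop2 differed by 0.07 and 0.13.

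The other 7 members have no difference here. Nat9, Fdxr and Galk1 were not analysed, as no probe carried their symbol. Slc16a5, Armc7, Exoc7 and Rnf157 had probes that did not pass the detection filter. Armc7 measured 4.90, 4.65 and 4.77 in the controls and 5.76, 5.62 and 4.85 in the knockouts, and was detected in knockouts 1 and 2 alone. Exoc7 was detected on 1 array, and Slc16a5 and Rnf157 on 0.

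Along chromosome 11, the medians of consecutive bins of 10 measured genes placed the raised stretch for each tumour. In knockout 1 the bin from Rpl38 to Atp5h stood at 0.78, the next 3 bins at 1.48, 1.66 and 1.73, and the bins from Prpsap1 to Srsf2 and from Mfsd11 to Birc5 at 0.92 and 1.22. Knockout 2 gave 0.74, 1.48, 1.61, 1.04, 1.09 and 1.66 over the same 6 bins. Knockout 3 gave 0.05, 0.29, 0.41, 0.32, -0.22 and 0.31. Knockouts 1 and 2 were thus raised in every one of these 6 bins, least in the first. That first bin holds Gpr142, near background, and Rpl38, among the brightest genes of the array, so its lower level is not read as an edge. The last bin with members, from Tha1 to C1qtnf1, holds 4 of them. It stood at 1.45, -0.02 and 0.59 in knockouts 1, 2 and 3, so knockout 2 was not raised there. Over the 68 bins before Map2k6, the controls ranged from -0.50 to 1.01, knockout 1 from -0.44 to 0.62, knockout 2 from -0.61 to 0.83 and knockout 3 from -0.43 to 0.79. Counting the bins on both sides, member-free bins reached 1.49 in knockout 1 and 1.56 in knockout 2. The bins were set after the data were seen.

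**Figure D2:**
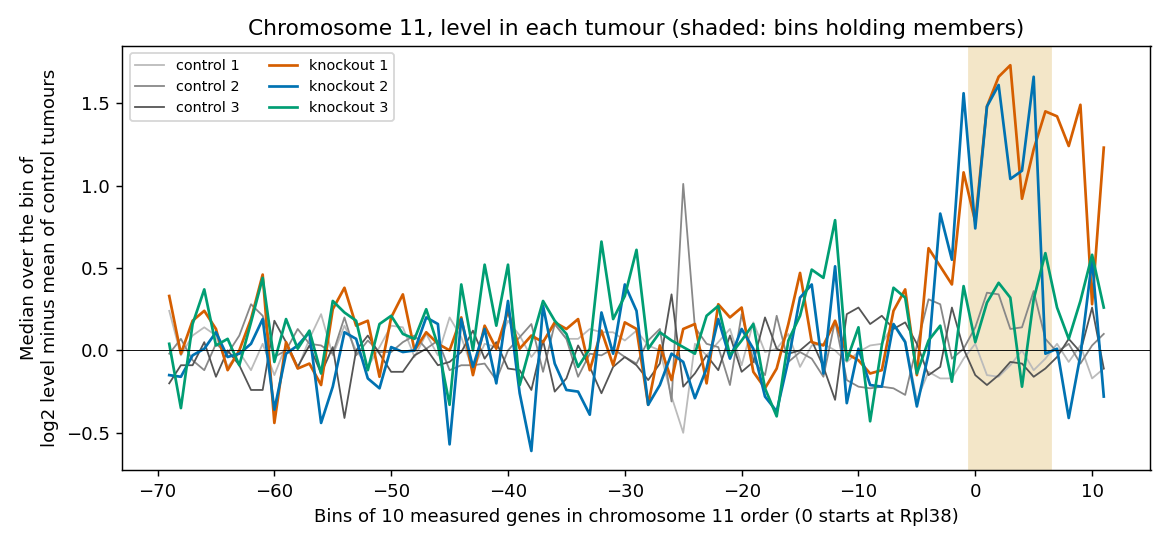
Median of the log2 level minus the control mean over bins of 10 measured genes along chromosome 11, 1 line per tumour; bin 0 starts at Rpl38 and shading marks bins that hold members. Knockouts 1 and 2 lie between 0.74 and 1.73 in bins 0 to 5. In bin 6, the last shaded one, knockouts 1, 2 and 3 lie at 1.45, -0.02 and 0.59. Past the shading, in bins 7 to 11, knockout 1 lies between 0.28 and 1.49 and knockout 2 between -0.41 and 0.55.

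The ends of the list were not the ends of the raised stretch. Just inside the proximal end, Rpl38, Ttyh2 and Gpr142 had differences of 0.01, 0.07 and 0.12, and just outside it Sdk2 and Cdc42ep4 had 0.06 and 1.15. Gpr142 and Sdk2 were near background, and Sdk2 was detected in only 2 controls and 1 knockout. The 10 measured genes before Rpl38, from Map2k6 to Sdk2, had medians of 1.08, 1.56 and 0.39 in knockouts 1, 2 and 3. Sox9, an epithelial transcription factor, lies among them with a difference of 1.90. The bins before these stood at 0.40 and 0.55 (Helz to Fam20a) and at 0.51 and 0.83 (Ern1 to Psmd12) in knockouts 1 and 2. Over the 699 measured genes of chromosome 11 before Rpl38 the medians were 0.10, -0.01 and 0.13. With the authors' values the medians of the 10 genes before Rpl38 were 0.36, 1.29 and 0.24, and with no background correction 0.51, 1.35 and 0.33. The size of the difference on the proximal side of knockout 1 thus depended on the processing. Knockout 1 exceeded all 3 controls for 8 of these 10 genes, where it did so for 36.9% of all measured genes.

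On the distal side the 2 raised tumours differed. The 56 measured genes after Usp36 had a median of 1.24 in knockout 1, -0.09 in knockout 2 and 0.29 in knockout 3. Knockout 1 exceeded all 3 controls for 43 of them (76.8%), knockout 2 for 14 (25%) and knockout 3 for 25 (44.6%). Of all measured genes, 36.9%, 34.7% and 33.7% did so. Knockout 1 was thus high over most genes past Usp36, and knockout 2 was near the control level over most. The bin from Rac3 to Sectm1a was an exception, at 0.28 in knockout 1 and 0.55 in knockout 2, and the last measured gene, Metrnl, stood at -0.06 in knockout 1. The last 3 members, picked out after their values were seen, differed between these 2 tumours but place no boundary. Pgs1, Cyth1 and Usp36 stood at 1.65, 2.29 and 1.80 above the control mean in knockout 1, and at -0.10, 0.55 and 0.26 in knockout 2. Nearer the centre, Syngr2 still stood at 2.32 in knockout 2, and Tk1 and Birc5, the next members, at 2.41 and -1.58. Between Birc5 and Pgs1, the non-member Tha1 stood at 1.85 in knockout 1 and 0.88 in knockout 2. Socs3, next to it, stood at -0.08 and -0.31, so it was raised in neither. Just outside, Timp2 and Cep295nl had differences of 0.37 and 0.25. On the other 19 chromosomes the median of all measured genes lay between -0.04 and 0.13 in knockout 1, between -0.06 and 0.09 in knockout 2 and between -0.07 and 0.08 in knockout 3.

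**Figure D3:**
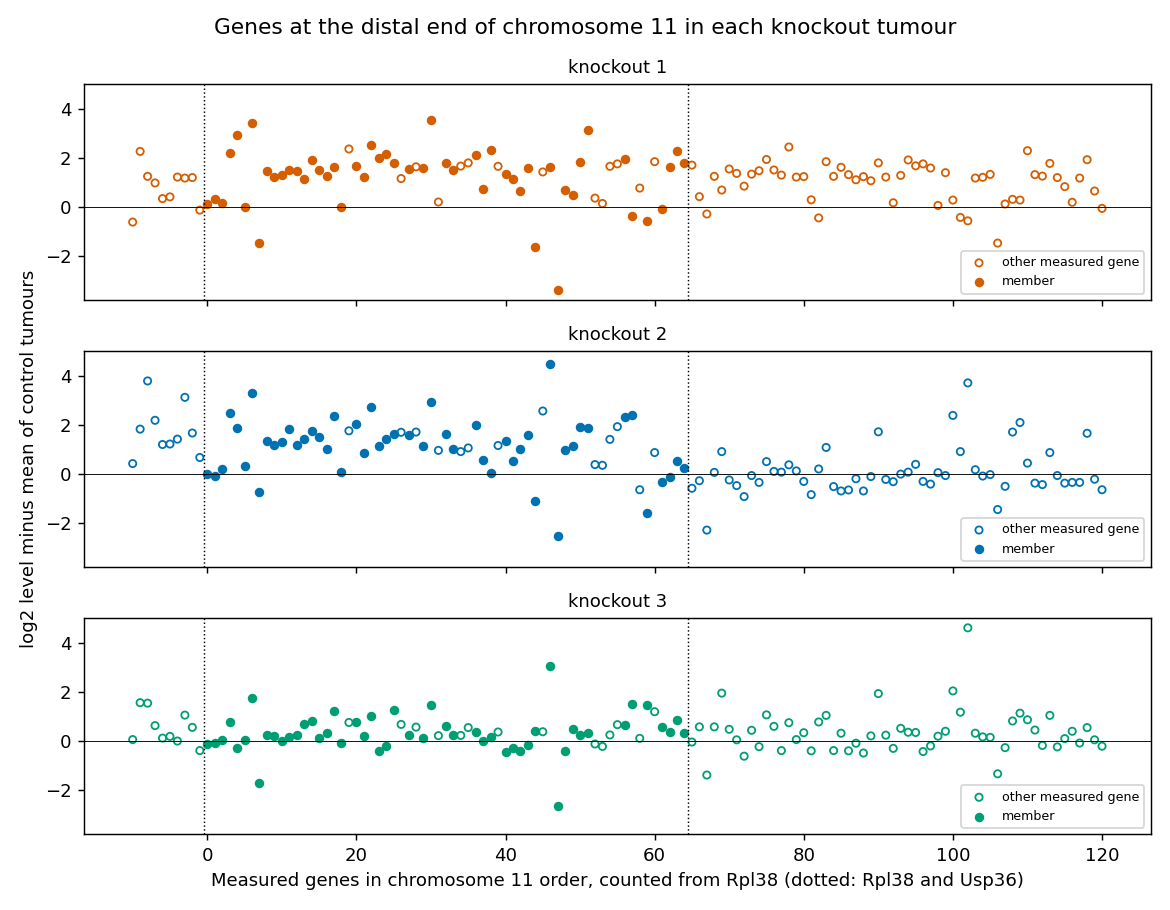
Each measured gene from the 10 before Rpl38 to the end of chromosome 11, in gene order, as the log2 level minus the control mean in knockout 1 (top), knockout 2 (middle) and knockout 3 (bottom); filled points are members and dotted lines mark Rpl38 and Usp36. Knockout 1 stays above 0 past Usp36 for most genes, knockout 2 scatters around 0 there, and in knockout 3 41 of the 51 members lie within 1 log2 unit of 0.

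The 14 measured non-members between Rpl38 and Usp36 lie in the chosen stretch without being on the list. Of these, Unc13d, Trim65 and Cdk3 were above background in no control and in all 3 knockouts, so they passed the detection filter through the knockouts alone. The other 11 had differences from 0.08 to 1.64 with a median of 1.12, and 2 were called higher, where 4.47% of all measured genes were. Per tumour the medians over all 14, with Unc13d, Trim65 and Cdk3 included, were 1.65, 1.12 and 0.38 in knockouts 1, 2 and 3. Because of that filter, nothing is read from these medians. Tmem94, Snhg16 and the histone gene H3f3b belong to them.

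Ubiquitous and epithelial members were set apart to see whether the level followed the kind of gene. All 28 measured ubiquitous members had differences above 0, as 5011 of 9289 measured genes off the segment did. Their median was 0.93, and 3 of them were called higher. Their medians in knockouts 1, 2 and 3 were 1.49, 1.19 and 0.23. The 6 epithelial members, Slc9a3r1, Llgl2, Itgb4, Evpl, Foxj1 and St6galnac2, had a median of 1.70, and 2.17, 2.26 and 0.92 per knockout tumour. Of these 6, 4 were called higher. The 17 other measured members had a median of 0.47, with 2 called in each direction. Of all measured genes, 4.47% were called higher and 5.63% lower, and nothing is read from these counts of chosen members. Epithelial members were thus higher than ubiquitous ones in all 3 knockout tumours by their medians, and that difference was not tested. It rests on 6 genes with limits. St6galnac2 was detected in 1 of the 3 controls and its other kept probe gave -0.24, and Foxj1 had a clear signal in knockout 1 alone.

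Markers of cell types moved in the same tumours. Of 16 listed luminal markers 11 were measured, and 6 were called higher, with medians of 1.77, 1.68 and 1.35 above the control mean in knockouts 1, 2 and 3. Their median level was 7.01 to 7.94 in the controls and 8.64 to 9.01 in the knockouts. Of 14 fibroblast markers 11 were measured, with medians of -3.04, -2.65 and -1.89 and 6 called lower. Their median level was 9.93 to 10.62 in the controls and 5.39 to 8.16 in the knockouts. By their medians both marker lists were shifted in knockout 3 as well, where the ubiquitous members stood at 0.23. Single luminal markers varied. Knockout 3 exceeded all 3 controls for 8 of the 11, knockout 2 for 10 and knockout 1 for 11. Of all measured genes, 33.7%, 34.7% and 36.9% did so in knockouts 3, 2 and 1. Elf5, among the 11, was detected in 1 of the 3 controls and in all 3 knockouts. In knockouts 1, 2 and 3, Krt8 stood at 1.25, 1.31 and 0.26 and Krt18 at 1.48, 1.56 and 0.41. Cldn4 stood at 1.72, -0.05 and -0.46. Endothelial, macrophage, lymphocyte and adipocyte lists had 2 or 3 measured genes each, with median differences of -2.33, -2.08, -0.11 and -1.84. Of the 2 lymphocyte genes, 1 was detected in no knockout. With that gene held at the detection floor the lymphocyte median was 0.05, so its sign is not settled. Basal epithelial markers split. Of 7 measured, Myh11, Mylk and Acta2, which are also contractile genes of other cells, differed by -3.17, -2.64 and -2.45, and Trp63 and Krt14 by 1.55 and 1.39. Their medians in knockouts 1, 2 and 3 were -1.05, 0.34 and 0.39, with 1 called higher and 2 lower. Among all measured genes, 4.47% were called higher and 5.63% lower. The part that the makeup of the tumours plays in the level of the segment was not tested.

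**Figure D4:**
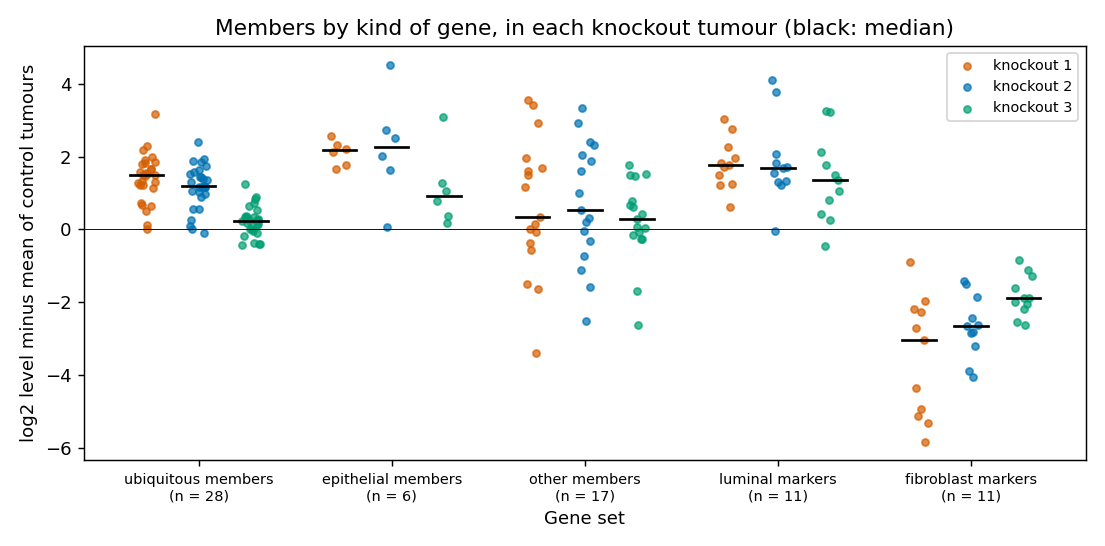
Log2 level minus the control mean in knockout 1, 2 and 3 for the ubiquitous (n = 28), epithelial (n = 6) and other members (n = 17) and for luminal and fibroblast markers (n = 11 each); 1 point per gene, black bars are medians. Ubiquitous members stand at 1.49, 1.19 and 0.23, while luminal markers stand at 1.77, 1.68 and 1.35.

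Genes of the same families that lie outside the segment are set beside the housekeeping members as a description. The members were chosen on this contrast and these genes were not, so a high rank of a member is no separate result. The 67 measured mitochondrial ribosomal protein genes elsewhere had a median difference of -0.01, with 0 called in either direction. Their medians in knockouts 1, 2 and 3 were 0.09, -0.07 and -0.01, against 1.48, 1.35 and 0.33 for Mrpl58, Mrps7 and Mrpl38. In knockout 2 each of these 3 members exceeded all 67, and in knockout 1 each exceeded at least 66. In knockout 3, Mrpl58 exceeded 53, Mrps7 54 and Mrpl38 66. The largest differences elsewhere were 1.02 for Mrps12, -0.71 for Mrpl52 and -0.64 for Mrps10. Mrpl12, which lies after Usp36 on the same chromosome, stood at 1.07 in knockout 1, -0.10 in knockout 2 and 0.22 in knockout 3.

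Most other families gave a similar picture, with the same limit from the choice of the members. Atp5h differed by 0.87, above all 11 other measured ATP synthase subunits, whose median was 0.09. Sumo2 differed by 1.10, above all 11 other genes of the SUMO pathway (median 0.14). Nup85 differed by 1.49, above 17 of 18 other nucleoporins (median 0.02). The exception there was Nup210, at 2.35. Srsf2 differed by 0.72, above 7 of 8 other SR splicing factors (median 0.20), and Srp68 by 0.44, above all 7 other genes of the signal recognition particle (median -0.15). Rpl38 and Socs3 did not stand apart, with differences of 0.01 and 0.07 beside medians of -0.01 over 27 cytosolic ribosomal proteins and -0.04 over 5 SOCS genes. Rpl38 is among the brightest genes of the array, at 14.48 to 14.71 in all 6 tumours.

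**Figure D5:**
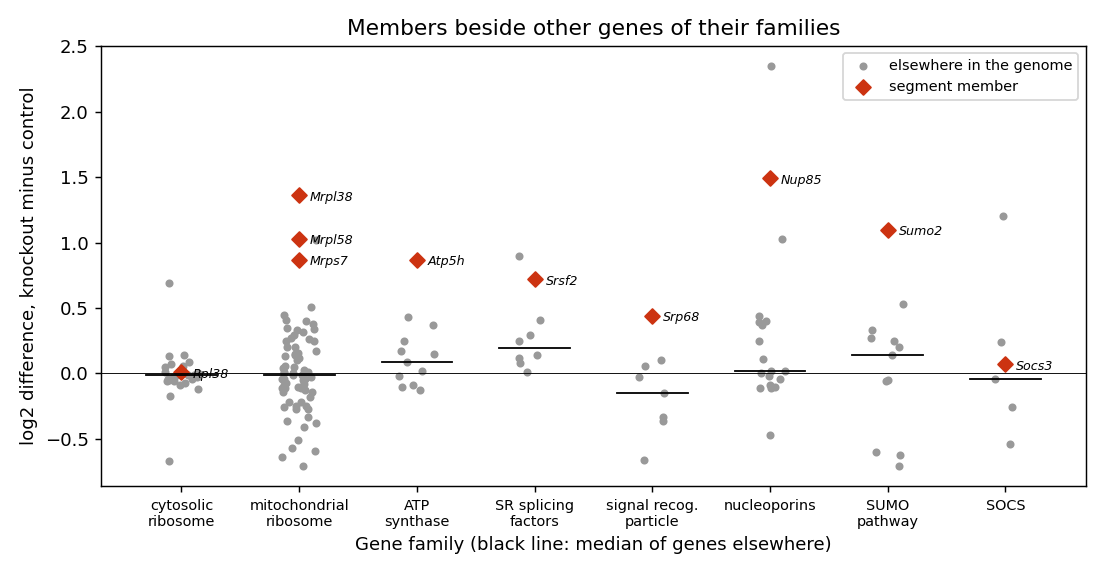
Log2 difference, knockout minus control (n = 3 each), of segment members (red diamonds, named) and of the other measured genes of their families (grey points, black bar for the median). Members of the mitochondrial ribosome, ATP synthase, signal recognition particle and SUMO pathway lie above nearly all other genes of the family, and Rpl38 and Socs3 lie near the median of theirs.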

How the data were processed

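Biotin-labelled RNA of 6 tumours was hybridised to Illumina bead arrays, 1 array per tumour. Per the file headers, the authors deposited a signal intensity and a detection p-value per probe and array, without normalization. The authors also deposited normalized log2 values, made with lumi 2.6.0 per the submitters' processing notes. The sources used here do not give its settings. Every normalized column kept the order of its own array's signals (Spearman correlation 1), with medians of 7.398 to 7.407, and their scaling stays unknown. In 1 detection column the deposited values held other content on 4 broken lines of 2 probes, which were left out, leaving 45279 probes. Detection columns were matched to their arrays by position in the header, and each ran with its own signal (Spearman -0.989 or lower).

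The neqc function of limma 3.58.1 (R 4.3.3) normalized the signals, using an offset of 16 and a background estimated through detection p-values. The 15885 probes detected (p below 0.05) on 3 or more of the 6 arrays entered the fit. Symbols came from the platform annotation (34883 probes with 1 symbol, 18 with several, 10378 unnamed here), and 34805 probes matched the GRCm38.p6 gene table by gene number, with 0 symbols changed. Knockout minus control was fitted with lmFit and eBayes over all kept probes with Benjamini-Hochberg adjustment and called at an adjusted p below 0.05, which gave 657 probes higher and 804 lower. On simulated data over 15885 probes, this comparison recovered 31% of probes changed by 1 log2 unit and 91% of those changed by 2. In that simulation 12 of 134 calls were false. Far fewer probes were changed in it than were called in the real data, so these rates need not hold there. The offset and background compress differences of dim probes, and the number of arrays limits precision.

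The members and lists were chosen with earlier results of these data known. All members could be named. Values per tumour were given, in each role group, for the 4 measured members with the largest absolute difference and for every member below 0. Outside the segment, the 10 genes beside each end, the non-members inside, up to 3 genes per family and Cyp27b1 could be named. Mrpl12, Metrnl, the basal markers Trp63, Krt14, Myh11, Mylk and Acta2, and the per-tumour values of Tha1 and the last members were added after their values were seen. So were the per-tumour values of Krt8, Krt18 and Cldn4 and the detection of Elf5. Alternatives tried were cyclic loess, an offset of 50, the authors' values, uncorrected background, other probe filters, the mean over a gene's probes, a replicate block and leaving out each tumour. Keeping member probes out of the quantile target, and the levels per tumour, were alternatives chosen after seeing the data.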

Additional observations from a re-analysis of the deposited data

How the results depend on the processing

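The count of called probes was 1461, and 723 with no filter on dim probes. Leaving out 1 tumour gave 481 (without control 1) to 1593, with 726 without control 3 and 562 without knockout 2. The count of called members was 11. It was 3 with the authors' values, 5 with no background correction and 2 with no filter, and leaving out 1 tumour gave 2 to 26. The segment level in knockout 1, 1.5, was 0.90 with the authors' values, 1.09 with no background correction and 1.24 with an offset of 50. That in knockout 2, 1.20, was 0.70 and 0.94 under the same first 2 settings, and 1.18 to 1.40 when 1 tumour was left out. Over all alternatives run, the median member difference lay between 0.55 and 1.32, that of ubiquitous members between 0.61 and 1.33 and that of epithelial members between 1.39 and 2.22. The cause of these shifts was not tested. The sign of the difference held for 45 measured members under every alternative run and changed in at least 1 for Grb2, Ttyh2, Birc5, Rpl38, Socs3 and Otop2. With the replicate number as a replicate block, 1381 probes and 11 members were called, 10 higher and 1 lower. Of these members 9 were called in both fits, Cdr2l and Mrpl38 without the block only, and Sumo2 and Caskin2 with it only. Deviations of same-numbered tumours correlated at 0.227, 0.088 and 0.061, so the numbers were not taken as pairs. Dim members such as Grb2, Gpr142 and Foxj1 are limited by background.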
